A study of Mus musculus with 6 samples.

Results

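The genes described here are those of cholesterol synthesis and of its control by SREBP2, the sterol-regulated transcription factor encoded by Srebf2. They were chosen by name, from a list of 27 enzymes and regulators. Of these, 26 had a value among the 20848 genes measured, from 305 probe sets, and Acat2 was not analysed here. Msmo1 was measured under its older symbol Sc4mol. The cells were EpH4, an established line of mouse mammary epithelium whose monolayers polarise and are sealed by tight junctions. All 6 samples came from monolayers held at confluence for 7 days and then placed in serum-free medium for 24 hours, 3 of them with vehicle and 3 with TGF-β3 at 1 ng/ml. TGF-β3 is a secreted growth factor that signals through SMAD proteins. Each sample was pooled RNA of 3 wells, measured on 1 whole-transcript array, and the titles number the samples 1, 2 and 3 in each group. The labels speak of 3 experiments but do not tie a sample number to one. All values are log2 signals, so that a difference of 1 is a doubling, and signals of different genes are not compared because probes differ in brightness.

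Cholesterol is made in the endoplasmic reticulum from acetyl-CoA by way of mevalonate, isoprenoid diphosphates, squalene and lanosterol. When the membrane holds enough sterol, INSIG proteins keep the escort protein SCAP and its cargo SREBP2 in the endoplasmic reticulum. When sterol falls, SCAP carries SREBP2 to the Golgi, the proteases encoded by Mbtps1 and Mbtps2 release its transcription factor domain, and this switches on most genes of the pathway, Insig1 and Srebf2 itself included. Liver X receptors (LXR) work in the opposite direction: they sense oxidised sterols and switch on exporters such as ABCA1. Mammary epithelium needs sterol for its membranes and for the membrane that wraps milk fat.

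SREBP2 binds DNA at sterol regulatory elements, commonly beside sites for the factor NF-Y (a CCAAT box) or for Sp1 (a GC box). These letters were searched on both strands of the RefSeq promoters (GRCm38.p6), which run from 250 bases before to 50 bases after each annotated start. Of the 27 listed genes, 23 had a promoter entry. A CCAAT box (CCAAT) was present in 19 of the 23 (82.6%), against 41.1% of all 27025 genes with an entry. A GC box (GGGCGG) was present in 20 of the 23 (87.0%), against 38.2% of all genes with an entry and 53.0% of the 15859 of them that the arrays measured. The short core of the sterol regulatory element (CACNCCA) was in 6 of the 23 (26.1%), against 20.6%. The longer form TCACNCCAC, which contains that core, was in Hmgcs1 alone, against 1.44% of all genes. Matches describe these windows only and do not show binding, which was not measured. The promoters of Srebf2, Insig1 and Idi1 are shown because these genes were among the members furthest apart between the sample numbers, and that of Hmgcs1 because it holds the longer element. Capitals mark the core of the sterol regulatory element and the CCAAT box on either strand (TGGNGTG and ATTGG on the reverse strand).

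Srebf2, chr15:82147019-82147318, plus strand, 1 core and 1 CCAAT box: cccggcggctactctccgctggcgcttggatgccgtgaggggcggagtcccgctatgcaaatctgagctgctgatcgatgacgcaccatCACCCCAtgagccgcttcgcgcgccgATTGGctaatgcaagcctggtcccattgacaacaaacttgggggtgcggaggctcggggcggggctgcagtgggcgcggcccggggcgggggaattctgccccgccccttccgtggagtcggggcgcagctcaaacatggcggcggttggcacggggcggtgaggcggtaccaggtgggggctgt
Insig1, chr5:28071162-28071461, plus strand, 1 core and 1 CCAAT box: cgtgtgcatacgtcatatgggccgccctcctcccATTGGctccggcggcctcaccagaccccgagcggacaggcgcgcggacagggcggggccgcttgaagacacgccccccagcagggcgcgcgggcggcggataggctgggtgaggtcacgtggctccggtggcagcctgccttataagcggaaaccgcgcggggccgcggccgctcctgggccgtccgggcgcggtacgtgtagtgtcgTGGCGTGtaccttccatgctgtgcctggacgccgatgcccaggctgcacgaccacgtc
Hmgcs1, chr13:119690101-119690400, plus strand, 1 core and 4 CCAAT boxes: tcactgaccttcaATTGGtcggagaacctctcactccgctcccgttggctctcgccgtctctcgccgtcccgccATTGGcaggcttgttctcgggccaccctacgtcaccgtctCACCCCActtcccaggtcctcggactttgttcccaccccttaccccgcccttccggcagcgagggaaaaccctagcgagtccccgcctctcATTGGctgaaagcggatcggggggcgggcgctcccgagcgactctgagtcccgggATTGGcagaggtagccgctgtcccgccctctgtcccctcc
Idi1, chr13:8885356-8885655, plus strand, 0 cores and 2 CCAAT boxes: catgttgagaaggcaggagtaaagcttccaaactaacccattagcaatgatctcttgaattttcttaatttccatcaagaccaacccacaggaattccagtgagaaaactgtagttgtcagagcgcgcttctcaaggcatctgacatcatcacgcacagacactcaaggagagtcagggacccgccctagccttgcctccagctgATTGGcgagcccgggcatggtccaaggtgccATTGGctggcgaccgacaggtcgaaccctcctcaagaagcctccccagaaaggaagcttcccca

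The 6 arrays had median probe set signals of 6.56 to 6.64. Vehicle 3 had a narrower spread over genes (SD 1.58) than the other arrays (1.68 to 1.74). With the genes divided into 5 equal classes by mean signal, the 2 brightest classes had median deviations of -0.15 and -0.17 from the gene's mean on that array. All 26 members belong to those 2 classes, so differences printed here that reach 0.1 and moved by over 1.5 times without the vehicle 3 array are given both ways. Detection calls were not used here. The members' signals lay between 7.16 and 10.94, above every array's median. Of 8 epithelial markers, 7 had signals of 8.99 to 11.90 on the 6 arrays, while the keratin gene Krt19 lay at 4.87 to 4.98, below the arrays' lower quartile (5.01 to 5.06).

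**Figure D1:**
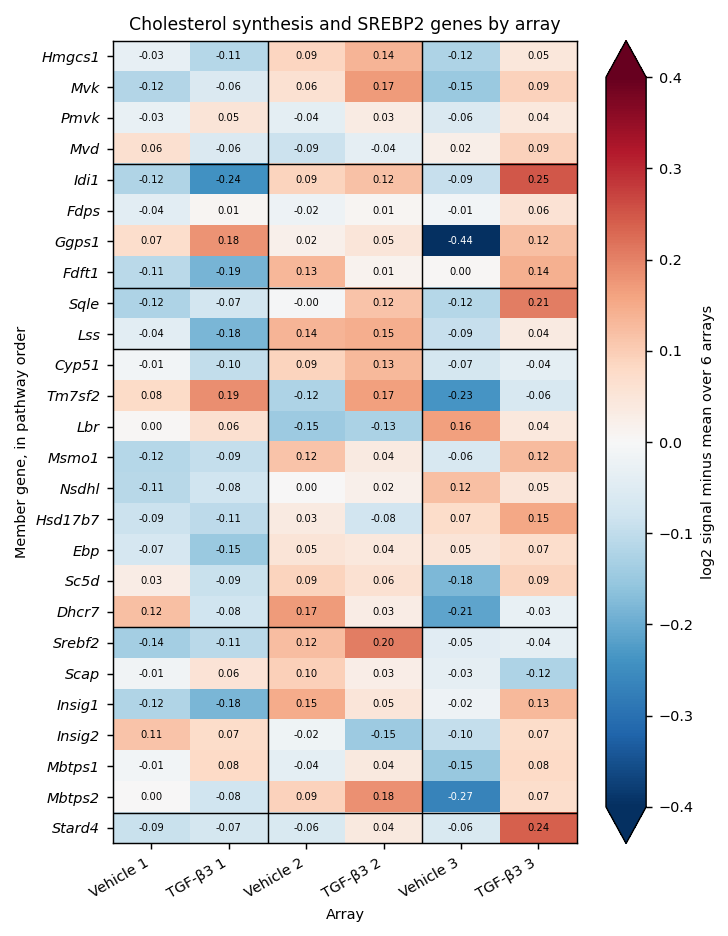
Signal of each of the 26 measured genes on each array, as its log2 signal minus its mean over the 6 arrays (colour and printed value), with the arrays side by side by sample number and the genes in pathway order. Of 19 synthesis enzymes, 9 are below their mean on both arrays numbered 1 and above it on both numbered 2 (13.2% of all genes). Ggps1 on vehicle 3 is the lowest value, at -0.44.

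With TGF-β3, the cholesterol genes stayed close to their vehicle levels. Of 26 genes, 17 had a positive difference and 9 a negative one, in a range of -0.05 to 0.24. The median difference was 0.0392, against 0.0112 over all genes. None passed the test (0 of 26 at an adjusted p under 0.05 in limma, and 0 of 26 at an unadjusted p under 0.05). Over all genes these shares were 0% and 5.16%. The 95% interval of the difference stayed within 1.5-fold in either direction for 26 of 26 members, as it did for 95.7% of all genes. Without the vehicle 3 array 16 members were higher with a median of 0.0166, and without both arrays numbered 3 the count was 12 with a median of -0.0126.

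The enzymes from acetyl-CoA to the first isoprenoids differed by at most 0.14. Hmgcs1, the synthase that makes HMG-CoA, had signals of 9.61, 9.73 and 9.52 in vehicle 1, 2 and 3 and of 9.53, 9.78 and 9.69 in the same-numbered TGF-β3 samples. The groups overlapped, and the difference was 0.04 (95% interval -0.17 to 0.26). Mvk, which encodes mevalonate kinase, had 8.05, 8.23 and 8.02 in vehicle and 8.11, 8.34 and 8.26 in TGF-β3. It was higher in each pair but the groups overlapped, with a difference of 0.14 (SE 0.10, adjusted p = 0.684) that was 0.01 with the median of its probe sets. Pmvk, the next kinase, had no overlap between the groups, at 7.22, 7.21 and 7.19 against 7.30, 7.28 and 7.29. Its difference was 0.09 (95% interval -0.08 to 0.25), and 4 of its 6 probe sets were higher. Mvd, the decarboxylase that ends the mevalonate steps, had a mean of 8.12 in both groups (SD 0.08 in each, n = 3).

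Among the isoprenoid enzymes, Ggps1 had the largest difference of all members. This gene encodes geranylgeranyl diphosphate synthase, which diverts isoprenoids to protein prenylation rather than to sterol. Its signals were 8.27, 8.22 and 7.76 in vehicle and 8.38, 8.25 and 8.32 in TGF-β3. The vehicle 3 array stood below the other 5, and the difference was 0.24 (SE 0.13, adjusted p = 0.684). Without that array it was 0.07 (SE 0.07), and with the median of the probe sets 0.12. The isomerase gene Idi1 had 9.22, 9.43 and 9.25 in vehicle and 9.10, 9.46 and 9.59 in TGF-β3. Its pair differences were -0.12, 0.03 and 0.34, so the direction was not shared. Fdps, the farnesyl diphosphate synthase gene, did not overlap between groups (8.79 to 8.82 against 8.84 to 8.89), with a difference of only 0.05 (SE 0.07) and 2 of 7 probe sets higher. Fdft1, which encodes squalene synthase and so commits the pathway to sterol, differed by -0.02 (95% interval -0.26 to 0.22).

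The squalene epoxidase gene Sqle was higher in all 3 pairs. Its signals were 9.52, 9.64 and 9.53 in vehicle and 9.57, 9.76 and 9.85 in TGF-β3, which overlapped at the lower end. The difference was 0.16 (SE 0.10, adjusted p = 0.684), and 11 of its 13 probe sets were higher. With the median of its probe sets the difference was 0.00 and with the brightest one 0.02. Lss, the cyclase that forms lanosterol, had means of 8.96 in both groups (SD 0.12 and 0.17, n = 3).

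Of the 9 genes that turn lanosterol into cholesterol, 3 were higher and 6 lower, and 8 of them differed by no more than 0.05. The exception was Tm7sf2, one of the genes for the sterol reductase step, with 7.50, 7.30 and 7.19 in vehicle and 7.61, 7.59 and 7.36 in TGF-β3. It was higher in 3 of 3 pairs and in 11 of 11 probe sets, but the groups overlapped and the difference of 0.19 (SE 0.11) did not pass (adjusted p = 0.684). Without vehicle 3 it was 0.12 (SE 0.11), and with the brightest probe set 0.04. Lbr, a nuclear membrane protein gene with the same reductase activity, differed by -0.01 (SE 0.10). The demethylase gene Cyp51 (-0.01), the methylsterol oxidase gene Msmo1 (0.04), the dehydrogenase gene Nsdhl (-0.01), the ketoreductase gene Hsd17b7 (-0.02), the isomerase gene Ebp (-0.02), the desaturase gene Sc5d (0.04) and the final reductase gene Dhcr7 (-0.05) each had 95% intervals that included 0. Without vehicle 3, Dhcr7 differed by -0.17 (SE 0.07), which did not pass in limma over all genes (adjusted p = 0.986).

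The regulators differed as little. Srebf2 had signals of 9.75, 10.01 and 9.84 in vehicle and 9.78, 10.09 and 9.85 in TGF-β3, a difference of 0.04 (95% interval -0.21 to 0.28). Insig1, itself an SREBP2 target, had a mean of 10.79 in both groups (SD 0.14 and 0.16, n = 3), and its paralogue Insig2 one of 8.49 in both (SD 0.11 and 0.13). The escort gene Scap differed by -0.03 (SE 0.08). The protease gene Mbtps1 did not overlap between groups, with 9.26, 9.23 and 9.12 in vehicle and 9.35, 9.31 and 9.35 in TGF-β3. Its difference was 0.14 (SE 0.08, adjusted p = 0.684), with 19 of 28 probe sets higher, but it was 0.04 with their median and -0.05 with the brightest one. The second protease gene, Mbtps2, differed by 0.12 (SE 0.11), or by 0.01 (SE 0.09) without vehicle 3. Stard4, which encodes a cytosolic sterol carrier, had 7.16, 7.19 and 7.19 in vehicle and 7.18, 7.29 and 7.49 in TGF-β3, a difference of 0.14 (SE 0.10), or of -0.02 with the brightest probe set. Only the TGF-β3 3 array was clearly above the rest for this gene.

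**Figure D2:**
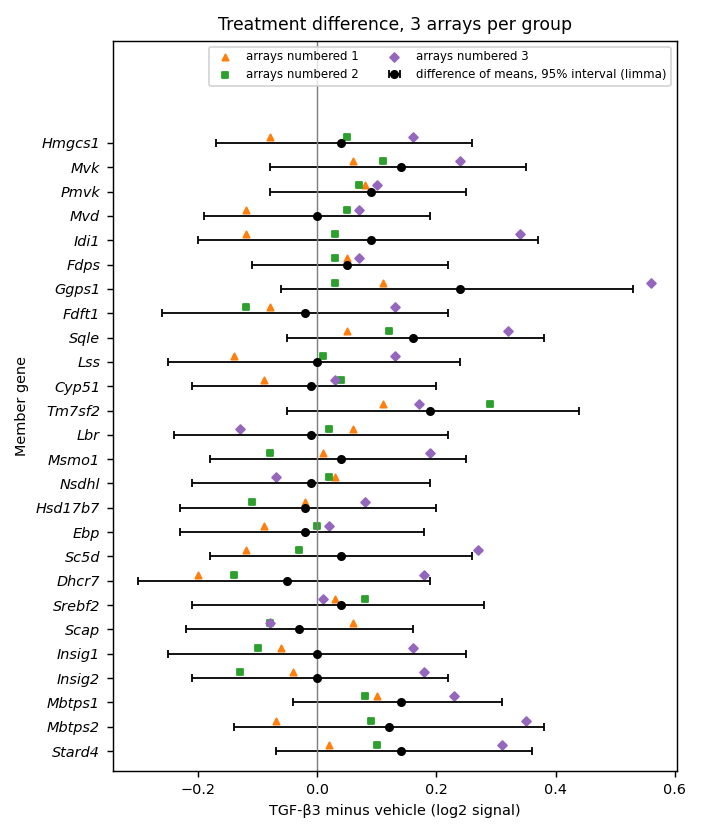
TGF-β3 minus vehicle for each gene in log2 units: black points with bars are the difference of the 3-array means with its 95% interval from limma, and coloured marks are the differences within arrays of the same number. All intervals include 0, and in 23 of the 26 genes the mark for number 3 is above 0.

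TGF-β3 lay wholly above vehicle in 3 of 26 members (Pmvk, Fdps and Mbtps1), against 6.84% of all genes, and vehicle above TGF-β3 in 0 of 26, against 6.05%. The direction was up in all 3 pairs for 9 of 26 members (24% of all genes) and down in all 3 for 0 of 26 (18%). The pairs did not move alike. In pair 1, 13 members were higher and 13 lower, with a median of -0.00442. In pair 2, 17 were higher (median 0.0304). In pair 3, 23 were higher with a median of 0.16, against 0.00618 over all genes. After quantile normalization, which evens out the narrower range of vehicle 3, pair 3 had 18 members higher with a median of 0.0852. The part of that array in the difference was not tested otherwise. When same-numbered samples were paired by a replicate block, 2 genes of the whole table passed (0.00959%) and 12.2% had an unadjusted p under 0.05, but still 0 of 26 members passed. Tm7sf2 was the 1 member with an unadjusted p under 0.05 there (limma over all genes, adjusted p = 0.404).

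Between the sample numbers, 12 of the 26 genes were below their mean on both arrays numbered 1 and above it on both numbered 2, as were 13.2% of all genes. Averaged over the 26 genes, vehicle samples 1, 2 and 3 had signals of 8.90, 8.98 and 8.86, and TGF-β3 samples 1, 2 and 3 had 8.89, 8.99 and 9.01. Relative to number 1, the median member was 0.103 higher in number 2 and 0.0604 higher in number 3, where the median over all genes was -0.00817 and 0.0036. Leaving out 1 array at a time gave medians of 0.0651 to 0.192 for number 2 (highest without vehicle 1, lowest without vehicle 2). For number 3 they ran from -0.00629 (without TGF-β3 1) to 0.119 (without vehicle 3), so its direction rests on single arrays. Both arrays numbered 2 lay above both numbered 1 in 16 of 26 members, against 25.7% of all genes. The reverse held for 3 members (Ggps1, Lbr and Insig2), against 30.4%. Of the members' 305 probe sets, 210 (68.9%) were higher in number 2 than in number 1, compared with 47.8% of all named probe sets; probe sets of a gene share its RNA and are not replicates.

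No single gene of the pathway passed the test between numbers. In limma's F test with the treatment as a term, 246 of all genes passed (1.18%) and 15.9% had an unadjusted p under 0.05. Among the members 0 of 26 passed, and 2 (Srebf2 and Tm7sf2) had an unadjusted p under 0.05. Each number has only 2 arrays. Without the TGF-β3 3 array, number 3 is left with vehicle 3 alone, the array with the narrower spread over genes. Ggps1, Dhcr7 and Srebf2 passed in that fit, which cannot tell number 3 from that array. Ggps1 and Dhcr7 had their lowest signals on it (7.76 and 7.62). The counts and medians over the members are descriptions with no test.

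Srebf2 had the smallest p of the members. Its signals were 9.75 and 9.78 on the vehicle and TGF-β3 arrays numbered 1, 10.01 and 10.09 on those numbered 2, and 9.84 and 9.85 on those numbered 3. The numbers did not overlap, and the 2 arrays of a number lay within 0.08 of each other. Number 2 was 0.29 above number 1 (SE 0.09, 1.22-fold), in 25 of 25 probe sets (adjusted p = 0.262). With the median of the probe sets this was 0.37, and with the brightest one alone 0.07. Its target Insig1 had 10.67 and 10.61 in number 1, 10.94 and 10.84 in number 2, and 10.77 and 10.92 in number 3. Number 1 lay below both other numbers, by 0.25 and 0.21 (SE 0.10, adjusted p = 0.351; the latter 0.33 without vehicle 3), and all 5 probe sets were higher in number 2. Insig2, the INSIG gene that does not depend on SREBP2 in the same way, had the opposite order, with 8.60 and 8.56 in number 1 against 8.47 and 8.34 in number 2. It was 0.18 lower in number 2 (SE 0.10, adjusted p = 0.561), and 0 of 7 probe sets were higher there. The difference between the 2 paralogues was not tested.

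Of the 19 synthesis enzymes, 12 had both arrays numbered 2 above both numbered 1, against 25.7% of all genes. Idi1 was 0.28 higher in number 2 than in number 1 and 0.26 higher in number 3 (SE 0.12, adjusted p = 0.362), with number 1 lowest in both groups. The number 3 value was 0.45 without vehicle 3, and the number 2 value 0.13 with the median of the probe sets. Lss had 8.92 and 8.78 in number 1, 9.10 and 9.11 in number 2, and 8.87 and 9.00 in number 3. Number 2 was above both other numbers, and above number 1 by 0.26 (SE 0.10, adjusted p = 0.369) in 20 of 22 probe sets. Fdft1 was 0.22 higher in numbers 2 and 3 than in number 1 (SE 0.10, and 0.33 for number 3 without vehicle 3), Mvk was 0.21 higher in number 2 (SE 0.09) and Hmgcs1 0.18 (SE 0.10). For Msmo1 the step from number 1 to number 2 was 0.18 in 5 of 5 probe sets, for Cyp51 0.17 in 12 of 13, for Sqle 0.16 in 10 of 13 and for Ebp 0.16 in 5 of 6. The last 2 depended on the probe sets: Sqle had -0.03 with their median and -0.01 with the brightest, and Ebp -0.17 with the brightest. Fdft1 had 0.09 with the brightest. The steps of Nsdhl (0.11), Sc5d (0.10) and Hsd17b7 (0.07) were smaller, as were those of Dhcr7 (0.08, or -0.05 with the brightest probe set) and Stard4 (0.07, or -0.17 with the median and 0.44 with the brightest). Outside the enzymes, Mbtps2 was 0.18 higher in number 2 (SE 0.11) and Scap 0.04.

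A few members went another way. Tm7sf2 had its highest mean in number 1, at 7.50 and 7.61, against 7.30 and 7.59 in number 2 and 7.19 and 7.36 in number 3. Numbers 1 and 2 overlapped, and number 3 was 0.28 below number 1 (SE 0.09, adjusted p = 0.301), or 0.30 below it without vehicle 3. Lbr, which shares the reductase step with it, was lowest in number 2 (8.73 and 8.75) and higher in numbers 1 (8.88 and 8.94) and 3 (9.04 and 8.92), without overlap of number 2 with either (adjusted p = 0.367). Ggps1 was 0.09 lower in number 2 and 0.29 lower in number 3 than in number 1 (SE 0.13). Without vehicle 3, number 3 was 0.04 lower. Pmvk, Fdps, Mvd and Mbtps1 differed by no more than 0.06 between numbers 1 and 2, though Fdps had 0.36 with the median of its probe sets.

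**Figure D3:**
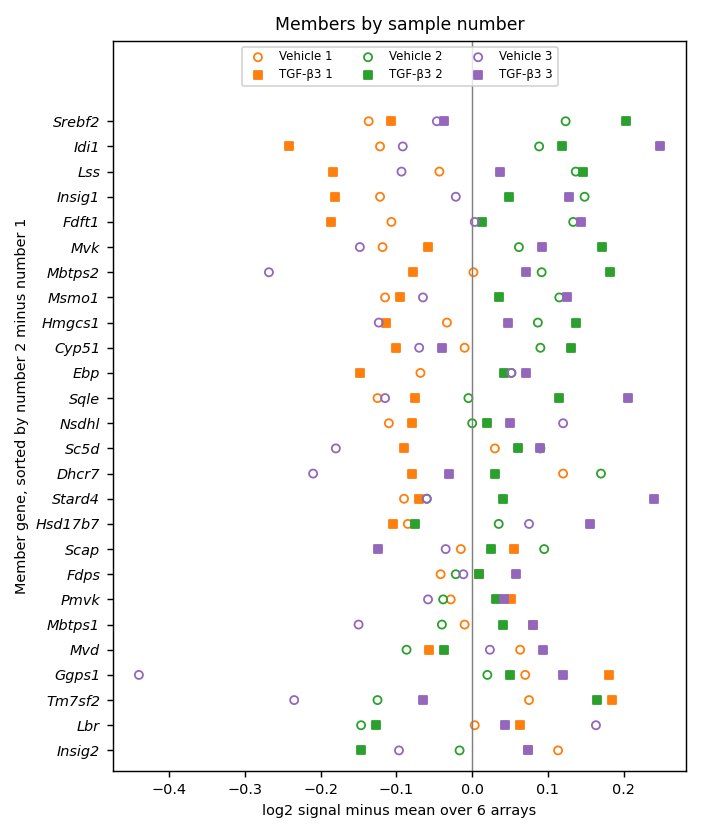
Signal of each gene on each array, as log2 signal minus its mean over the 6 arrays, with colours for the sample numbers, open circles for vehicle and filled squares for TGF-β3, sorted by the difference of number 2 and number 1. From Srebf2 to Hsd17b7 the orange marks (number 1) are mostly left of the green marks (number 2), with Dhcr7 overlapping, and from Ggps1 to Insig2 the order is turned for Ggps1, Lbr and Insig2.

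Number 3 was the least even. Both arrays numbered 3 lay above both numbered 1 in 9 of 26 members (19.5% of all genes), and both numbered 1 above both numbered 3 in 3 members, Tm7sf2, Scap and Insig2 (22.7%). Number 2 lay wholly above number 3 in 7 members (14.5%) and number 3 above number 2 in 5 (15.6%). The median of number 2 minus number 3 was 0.038 with all arrays, -0.0482 without vehicle 3 and 0.141 without TGF-β3 3, so no order of numbers 2 and 3 can be read.

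In the list of sterol transport, storage and LXR genes, 1 of 19 passed the F test between numbers (1.18% of all genes) and 7 had an unadjusted p under 0.05 (15.9% of all genes). The difference between this list and the pathway genes was not tested. The median gene of the list was 0.145 higher in number 1 than in number 2 and 0.186 higher than in number 3 (0.101 without vehicle 3), although Lrp8 and Soat1 were lower in number 1 than in number 2. The member that passed was Abca1, the cholesterol exporter gene and a standard LXR target. It had signals of 9.22 and 9.03 in number 1, 8.45 and 8.49 in number 2, and 8.28 and 8.35 in number 3, on the vehicle and TGF-β3 arrays in turn. Number 1 was 0.66 above number 2 and 0.81 above number 3 (SE 0.10, adjusted p = 0.0145), while TGF-β3 and vehicle differed by -0.03 (SE 0.25). The call depends on the probe set summary: with the brightest probe set no gene passed this test, Abca1 included. Further genes were chosen after their values were seen. Lrp8, a lipoprotein receptor gene, had the reverse order, with 8.28 and 8.31 in number 1, 8.68 and 8.71 in number 2 and 8.82 and 8.80 in number 3 (adjusted p = 0.0613). The LXR targets Abcg1 and Mylip were 0.31 and 0.20 higher in number 1 than in number 2 (SE 0.09 each, adjusted p = 0.161 and 0.289). Srebf1, another LXR target, lay between 8.71 and 8.73 on all 6 arrays.

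**Figure D4:**
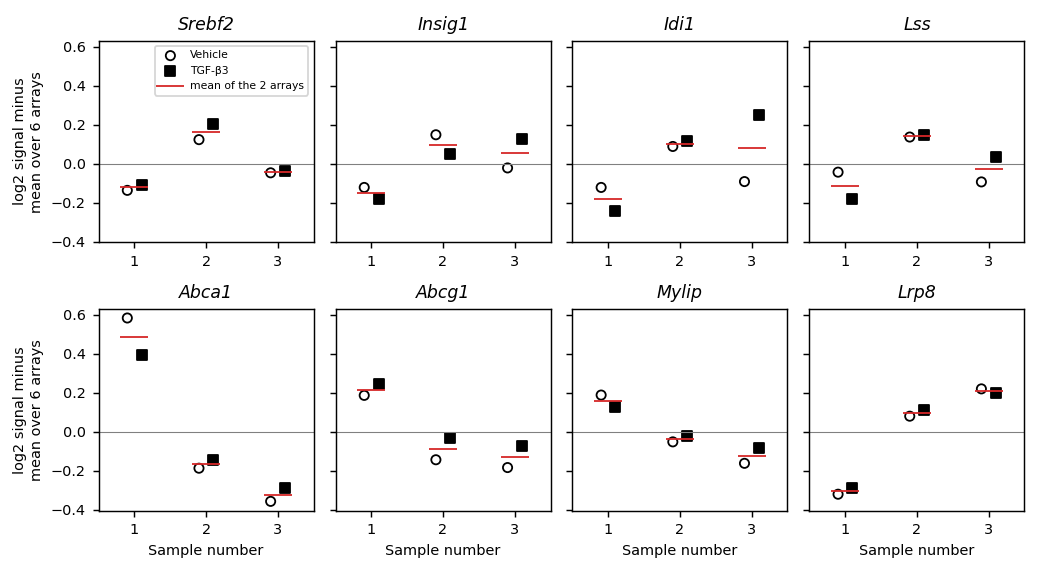
Log2 signal minus the gene's mean over the 6 arrays by sample number for 4 members (upper row) and 4 neighbouring sterol genes (lower row), with open circles for vehicle, filled squares for TGF-β3 and red bars for the mean of the 2 arrays. Srebf2, Insig1, Idi1, Lss and Lrp8 are lowest in number 1, and Abca1, Abcg1 and Mylip are highest there. The genes shown are a selection. Tm7sf2 and Lbr, which rank 2 and 5 among the members by F-test p, are not shown. Tm7sf2 is highest in number 1 and Lbr is lowest in number 2. Npc2, Nr1h2 and Nr1h3 have a smaller F-test p than Mylip and are not shown either. Npc2 and Nr1h2 are highest in number 1, and Nr1h3 in number 3.

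Fatty acid synthesis genes, which answer mainly to SREBP1, had a median near 0 between numbers 1 and 2 (number 1 minus number 2 of -0.0166), and 0 of 13 passed. Number 2 lay wholly above number 1 in 6 of the 13 (25.7% of all genes), and the reverse held in 3 (30.4%). Number 3 lay wholly above number 1 in 5 (19.5%), and the reverse held in 2 (22.7%). Part of the list thus had the order seen in many pathway genes. The 2 with the smallest p were Acaca and Fasn, which encode the carboxylase and the synthase of fatty acid synthesis. They were lower in number 1 than in number 2 by -0.33 and -0.36 (SE 0.10 and 0.09, adjusted p = 0.161 and 0.202). Of 15 genes of the isoprenoid branches to dolichol, ubiquinone and prenylated proteins 0 passed, with Nus1 0.33 higher in number 1 than in number 2 (adjusted p = 0.229) and Fnta 0.19 (adjusted p = 0.391). Of 9 measured genes of sterol-regulated degradation in the endoplasmic reticulum 0 passed, with Ube2g2 at 0.29 and Rnf139 at 0.27 for the same difference (adjusted p = 0.268 and 0.349).

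Against vehicle, 0 genes of these 4 lists passed with TGF-β3, and the genes named next each had an adjusted p of 0.684. Over all genes 52.8% were higher, with a median of 0.0112. Vehicle 3 was low in each of the 4 lists: 4 of 19, 2 of 15, 0 of 9 and 3 of 13 genes were above their own mean there, in the order that follows.

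Of the sterol transport, storage and LXR genes 16 of 19 were higher with a median of 0.0936, and without vehicle 3 14 were, with a median of 0.0486. They include the lysosomal lipase gene Lipa (0.29, SE 0.11, and 0.19 without vehicle 3) and the lysosomal sterol exporter gene Npc1 (0.24, SE 0.09). Of the isoprenoid branch genes 13 of 15 were higher with a median of 0.107, and without vehicle 3 12 were, with a median of 0.0461. In pair 1 only 6 of these 15 were higher, against 14 in pair 3. They include Pdss2 (0.19, SE 0.09), which acts in ubiquinone synthesis, and Fntb (0.18, SE 0.09), the farnesyltransferase subunit gene. The 9 degradation genes were all higher in the mean of 3 arrays with a median of 0.107, but without vehicle 3 7 were, with a median of 0.065, and in pair 1 only 5. They include Ufd1 (0.20, SE 0.09) and Vcp (0.16, SE 0.09, and 0.09 without vehicle 3), whose products extract proteins from the membrane. Of the fatty acid genes 10 of 13 were higher with a median of 0.0405, and without vehicle 3 7 were, with a median of 0.00385. They include Mid1ip1 (0.13, SE 0.08, and 0.08 without vehicle 3) and Acaca (0.21, SE 0.14). The part of the vehicle 3 array in these differences was not tested otherwise.

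Other genes moved with the sample numbers too. Interferon response genes, a list chosen with earlier results of these data known, were far higher in number 1. Their mean was 8.94 and 9.18 there, 7.78 and 8.38 in number 2 and 7.45 and 8.12 in number 3. Of these genes 13 of 14 passed the F test (1.18% of all genes). With the brightest probe set no gene of the whole table passed it, and with the median probe set few did. The 4 with the smallest p were Rsad2, Isg15, Mx2 and Irf7, which were 1.58, 0.99, 1.38 and 1.07 higher in number 1 than in number 2 (adjusted p = 0.00131, 0.00338, 0.00338 and 0.00338). With TGF-β3, 14 of 14 were higher than with vehicle, with a median of 0.505, or 13 with a median of 0.168 without vehicle 3. In the unpaired fit 0 passed and 1 had an unadjusted p under 0.05, with Irf9 (0.50, SE 0.22, and 0.33 without vehicle 3) and Bst2 (0.51, SE 0.24) having the smallest p (adjusted p = 0.684 each). With the replicate block 0 passed and 13 had an unadjusted p under 0.05 (12.2% of all genes), and 13 of 14 were higher in all 3 pairs (24% of all genes). The smallest p there was that of Irf7 (0.66, SE 0.09, adjusted p = 0.252). Ch25h, the gene for an interferon-induced enzyme that oxidises cholesterol, lay at 5.01 to 5.42 on the 6 arrays and differed by 0.16 between numbers 1 and 2 (SE 0.12, adjusted p = 0.583). Of 7 fibroblast markers 2 passed, Col1a1 and Col1a2, both lower in number 1 than in the other numbers. Pdgfra, which did not pass (adjusted p = 0.25), was 0.34 higher in number 1 than in number 2, and Thy1 0.15 higher (adjusted p = 0.521). The mean of that list was 6.26 to 6.54 in vehicle and 6.27 to 6.47 in TGF-β3, and Dcn and Lum lay at 4.24 to 4.57, below the lower quartile of the arrays. Macrophage, endothelial and adipocyte markers had 0 genes past the F test among 5, 3 and 4. Their means on the arrays were 5.52 to 5.84, 4.91 to 5.11 and 5.08 to 5.24. The macrophage markers differed: Csf1r lay at 6.37 to 7.18 and Cd68 at 6.76 to 7.14. Ptprc lay at 5.08 to 5.63, Adgre1 at 4.62 to 4.95 and Lyz2 at 4.31 to 4.79. Csf1r was 0.43 lower in number 1 than in number 2 (SE 0.09, F test adjusted p = 0.0903). With TGF-β3 it was 0.36 higher than with vehicle (SE 0.15, limma adjusted p = 0.684). The part of interferon response, other cells and culture conditions in the differences between numbers was not tested.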

How the data were processed

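RNA of 6 EpH4 samples was measured on Affymetrix Mouse Gene arrays. Per the submitters' processing notes, the authors used RMA in Affymetrix Power Tools, and they deposited log2 signals for 241576 probe sets (2.96 to 13.07); their tool versions are not given in the sources used here. Precision is limited by having 3 arrays a group.

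Probe sets with 1 symbol in the platform's table (88.3%) were averaged per gene and array. Old symbols were updated through RefSeq. Groups and numbers came from the titles. TGF-β3 was compared with vehicle in limma 3.58.1 (R 4.3.3, lmFit and eBayes) over all 20848 genes, with Benjamini-Hochberg adjustment and a threshold of 0.05. This main fit was unpaired, with no term for the number. The SE, intervals and p of the treatment differences come from it unless another setting is named. Numbers were compared by limma's F test with treatment as a term; differences between numbers carry no p of their own. Scripts were tested on simulated data. Figures used Python 3.11.15 and matplotlib 3.10.9.

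Members and gene lists were chosen with earlier results of these data known. Every member was to be named, those with the 6 smallest p in each comparison in full, and of each other list the genes past the threshold (at most 4) or else the 2 with the smallest p. Deviations from group means correlated at 0.62, 0.41 and 0.22 over genes for same-numbered arrays. For arrays of different numbers they correlated at -0.49 to 0.17. The highest of these, vehicle 3 with TGF-β3 2, was close to the 0.22 of number 3. Same-numbered arrays were taken as linked for the pair differences, the replicate block and the test between numbers. The labels do not state this link. Alternatives were the replicate block, other normalizations and probe set summaries, a signal filter, other eBayes options and leaving out arrays.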

Additional observations from a re-analysis of the deposited data

How the results depend on the processing

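No member passed against vehicle under any alternative computed, the paired fit with the replicate block included. Over all genes the count was 2 with the replicate block, 1 with the block and quantile normalization (added after seeing the data) and 0 to 1 when an array was left out (1 without vehicle 1). The median member difference was 0.00825 to 0.0914 over those omissions. Between numbers, 246 genes became 4 without the treatment term, 9 with the median probe set, 0 with the brightest probe set (2985 at an unadjusted p under 0.05) and 136 to 4213 without 1 array. Those counts were 136, 635 and 475 without vehicle 1, 2 and 3 and 333, 775 and 4213 without TGF-β3 1, 2 and 3. For members the range was 0 to 3. The median of number 1 minus 2 was -0.192 to -0.0651, of 1 minus 3 -0.119 to 0.00629 (-0.148 with the brightest probe set) and of 2 minus 3 -0.0482 to 0.141 (-0.0374 with the brightest probe set). The 16 members with number 2 wholly above number 1 (25.7% of all genes) were 13 with the brightest probe set (26.1%) and 18 with median centring (35.3%), alternatives chosen after seeing the data, as were the gene lists without vehicle 3. The causes of these shifts were not tested. Quantile normalization turned the sign of 3 of 26 treatment differences and the brightest probe set of 10, all of them uncalled.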
